A study of Homo sapiens with 60 samples.

Results

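The time course of non-treated cells asks what a day in culture changes in 1321N1 cells that received no metal. 1321N1 is a human astrocytoma line with astrocyte-derived features, grown as an adherent layer in DMEM with fetal bovine serum. The comparison takes the 3 non-treated libraries collected at 24 h and the 3 collected at 1.5 h, chosen by their titles, out of 60 libraries in the series, which also holds non-treated cells at 12, 6 and 3 h and cells given 1 of 3 metals (cadmium chloride, mercury chloride or sodium metaarsenite) at each of these 5 times. All cells were wild-type, were seeded in 6-well plates a day before time 0, and shared the same serum-containing medium. Metal-treated wells received fresh metal-containing medium at time 0, whereas whether the non-treated wells had their medium replaced at that point is not given in the sources used here. The submitters describe the triplicates as technical, so p-values measure only the spread between these samples. RNA was profiled by 3′ mRNA sequencing, which reads the ends of polyadenylated transcripts, and the values are counts per gene. Of 62703 listed genes, 12341 passed the filter on low counts and were tested.

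A cell layer that sits undisturbed in a well continues to divide, becomes denser, uses glucose and amino acids and lets secreted factors accumulate. Genes that answer fresh serum, spreading and matrix contact are known to be high soon after handling and lower later. YAP with its TEAD partners and SRF drive many of them, among them CCN2, and TGF-beta signalling drives others, among them SKIL. The Notch pathway acts through RBPJ on HES1, and NRF2 drives genes for reduced glutathione and NADPH. These statements are background and not results of these libraries.

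The 6 libraries held 2467162 to 3857780 counts, so that 3 counts correspond to 0.773 to 1.19 CPM (counts divided by the library's size and rescaled, so that libraries of different depth can be compared), and mitochondrial transcripts took 5.54 to 7.94% of counts. Pairs of replicates correlated at 0.963 to 0.972 on the log2 scale. The third 24 h library stood apart from the other two, with a chi-square per degree of freedom of 5.36 and 5.93 against them, compared with 3.09 between the first and second 24 h libraries and 2.67 to 2.71 among the 1.5 h libraries. The libraries also differed in a trend with base composition. In the first and second 24 h libraries, genes rose by 0.077 and 0.092 log2 units for each 10 percentage points of GC in the last 400 transcript bases, whereas the slope was -0.030 in the third and -0.072, -0.063 and -0.033 in the 1.5 h libraries. At the other times the slope lay between -0.046 and -0.031 (3 h), between -0.0082 and 0.074 (6 h) and between -0.020 and 0.054 (12 h). A fit with a GC correction for each library was therefore added after the data had been seen, and its counts stand beside the uncorrected ones. Astrocyte markers were only partly present. VIM, GJA1, SOX9, NES, CD44 and NFIA had more than 3 counts in every library, but GFAP, S100B, AQP4, ALDH1L1 and FABP7 had 0 counts in all 6. The summed level of the 13 astrocyte markers, nearly all of it VIM, ranged over 5114 to 6020 CPM at the early time and 4093 to 5014 CPM at the late one. CD44 was the 1 marker that fell, by 0.29 on the log2 scale (adjusted p = 0.0108). Markers of oligodendrocytes, microglia or leukocytes, and endothelium each summed to 2.45 CPM or less. The 7 neuron markers summed to 23.0 to 27.6 CPM at 1.5 h and 23.9 to 28.5 CPM at 24 h, with SYT1 and GAD1 above 3 counts in every library and RBFOX3, SNAP25 and STMN2 at 0, and none of them passed the test.

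By edgeR's quasi-likelihood test with Benjamini-Hochberg adjustment, 227 genes (1.84% of those tested) were higher at 24 h and 179 (1.45%) were lower, together 3.29%. In what follows, "rose" and "fell" mean an adjusted p under 0.05. Of the 406 genes, 61 (0.494%) also passed a log2 fold change of 1 in either direction, 29 higher (0.235%) and 32 lower (0.259%). The median log2 fold change over all tested genes was 0.01. The 3 and 3 libraries did not overlap in 2538 genes (20.6% of those tested), and in 389 of the 406. Separate groups are thus usual among called genes, and where they are given below they add no support to a call. With the GC correction, 129 genes (1.05%) rose and 162 (1.31%) fell, together 2.36%. Both fits shared 103 risen and 122 fallen genes, so the balance of higher and lower calls turned from mostly higher to mostly lower. The total also moved with single libraries, from 406 to 180 without the first or the second 24 h library, to 207, 179 and 274 without the first, the second and the third 1.5 h library, and to 627 without the third 24 h library. A stable core of 35 risen and 43 fallen genes passed in each of 15 alternative fits. These fits do not include edgeR's glmTreat, a test against a log2 fold change of 1, which 0 genes passed. Of the 78 called genes that are named by rule, 41 lost their call without at least 1 of the 6 libraries, and such a loss is given beside the gene for 1 of those libraries. The core is used here to say which changes held, a choice made after the data had been seen. For comparison, the same fit, against the same 1.5 h libraries, called 15 genes (0.122%) at 3 h, all lower, 60 (0.486%) at 6 h, 505 (4.09%) at 12 h, and 189 (1.53%) between 12 and 24 h.

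The calls followed GC content closely. Median GC of the last 400 transcript bases was 49.75% for genes that rose and 33% for genes that fell, against 40.5% for all tested genes. When the genes were split into 5 bins of GC, 12 rose and 77 fell in the lowest bin, and 98 rose and 3 fell in the highest. After the correction the same bins held 32 and 41, and 19 and 28. The part of the GC trend in any single gene's change was not tested, and for the named genes whose call changed with the correction this is said beside the gene.

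**Figure D1:**
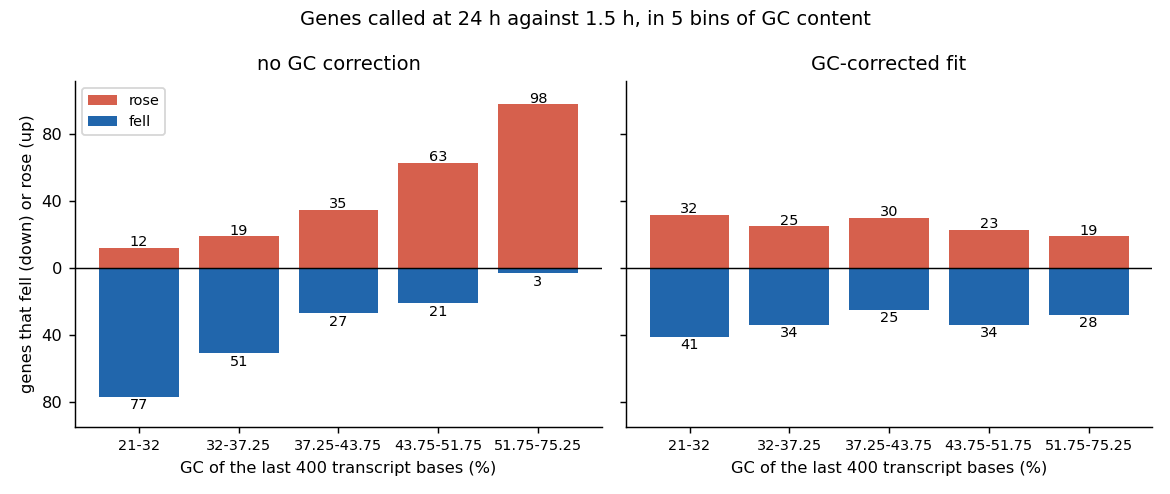
Number of genes that rose (up) or fell (down) at 24 h against 1.5 h in each of 5 bins of GC content (percent, horizontal axis), without (left) and with (right) the GC correction. Without it, the counts run from 12 rising and 77 falling genes to 98 and 3, and with it they run from 32 and 41 to 19 and 28.

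Of the largest falls by the naming rule, 11 are described here: HAS2, ESM1, KLF10, HES1, F3, VEGFC, LRP12, STC1, TFPI2, PLAUR and STEAP1. Apart from the transcription factors KLF10 and HES1, they encode secreted or membrane proteins. Of the 11, 10 passed in all 15 alternatives, and VEGFC, a lymphatic growth factor that fell by 1.23 on the log2 scale (adjusted p = 0.011), lost its call without the second 24 h library (adjusted p = 0.12) and without either of 2 others. The promoters of 4 genes that fell are shown, because their regulatory motifs are well described. The windows are the 250 bases before the annotated start from RefSeq (GRCh38.p14), printed in the direction of the gene. CCN2 lies at chr6:131951373-131951622 (minus strand), HES1 at chr3:194135898-194136147 (plus strand), F3 at chr1:94541760-94542009 (minus strand) and PLAUR at chr19:43670170-43670419 (minus strand). Capitals mark GGAATG, the core bound by TEAD, in CCN2, GTGGGAA, the core bound by RBPJ, in HES1, and the AP-1 site TGACTCA, read on the opposite strand as TGAGTCA, in F3 and PLAUR.
CCN2: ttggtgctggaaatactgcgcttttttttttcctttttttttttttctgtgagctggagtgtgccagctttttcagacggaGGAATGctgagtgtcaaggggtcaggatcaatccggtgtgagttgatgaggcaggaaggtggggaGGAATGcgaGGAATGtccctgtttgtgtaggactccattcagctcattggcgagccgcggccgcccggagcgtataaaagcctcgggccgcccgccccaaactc
HES1: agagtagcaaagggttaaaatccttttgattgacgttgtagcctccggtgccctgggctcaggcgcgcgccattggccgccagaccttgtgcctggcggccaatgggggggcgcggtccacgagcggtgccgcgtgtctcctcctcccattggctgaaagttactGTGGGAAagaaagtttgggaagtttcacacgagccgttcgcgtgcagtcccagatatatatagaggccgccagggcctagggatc
F3: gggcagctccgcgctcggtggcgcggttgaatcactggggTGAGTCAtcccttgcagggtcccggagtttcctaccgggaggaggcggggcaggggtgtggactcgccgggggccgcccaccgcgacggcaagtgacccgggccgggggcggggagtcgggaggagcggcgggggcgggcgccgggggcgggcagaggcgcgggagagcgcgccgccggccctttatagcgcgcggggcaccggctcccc
PLAUR: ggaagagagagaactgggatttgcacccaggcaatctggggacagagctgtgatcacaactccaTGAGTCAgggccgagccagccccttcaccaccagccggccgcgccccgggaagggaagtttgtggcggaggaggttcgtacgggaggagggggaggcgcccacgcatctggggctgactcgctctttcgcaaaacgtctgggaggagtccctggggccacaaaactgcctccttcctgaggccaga
The CCN2 window held 3 matches, starting 169, 104 and 95 bases before the start, and the others held 1 each, starting 85 bases before it in HES1, 210 in F3 and 186 in PLAUR. These 4 windows were picked because they hold the motif. Searched on both strands in windows of 300 bases, 250 before and 50 after the start, GGAATG occurred in 14.0% of all 35116 RefSeq windows and in 11.5% of the windows of tested genes. TGACTCA occurred in 4.95% and 3.47%, GTGGGAA in 6.25% and 5.56%, and CAGACA, the element bound by SMAD proteins, in 16.9% and 13%. Of the 43 genes that fell in every alternative, 34 matched by symbol, with 57 windows, of which 7.02% held GGAATG, 10.5% TGACTCA, 8.77% GTGGGAA and 21.1% CAGACA. The 29 matched genes that rose in every alternative had 48 windows, of which 16.7%, 2.08%, 4.17% and 6.25% held the same motifs. A match is a description of letters and not evidence of binding.

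HES1, a transcriptional repressor downstream of Notch, was at 60.2, 69.0 and 74.4 CPM in the 1.5 h libraries and at 28.9, 27.4 and 25.1 CPM in the 24 h libraries. All 3 later libraries lay under all 3 earlier ones, and the log2 fold change was -1.32 ± 0.17 (SE, adjusted p = 7.1e-08). The fall was already present at 3 h, at -1.06 (adjusted p = 7.4e-05), and the level then stayed close to that reached, with a 24 h against 12 h difference of -0.14 (adjusted p = 0.80). CCN2, the matricellular protein CTGF, was at 127, 116 and 105 CPM at 1.5 h and 52.0, 46.4 and 77.6 CPM at 24 h, a log2 fold change of -0.98 ± 0.18 (adjusted p = 0.00027). It too was lower at 3 h, by 0.91 on the log2 scale (adjusted p = 0.0053). KLF10, a TGF-beta-inducible early transcription factor, went from 62.8, 70.1 and 63.7 CPM to 10.3, 18.8 and 36.4 CPM, a log2 fold change of -1.60 ± 0.30 (adjusted p = 0.00046). Its groups did not overlap, although the 24 h libraries differed widely among themselves, and its 3 h value of -1.08 did not pass (adjusted p = 0.23). GADD45B, a stress-inducible growth-arrest gene, fell by 0.60 on the log2 scale (adjusted p = 0.00028) and had a 3 h value of -0.67 (adjusted p = 0.00026). By the fitted values, these 4 genes had reached most of their 24 h difference by 3 h.

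Other genes fell later. ESM1, a secreted proteoglycan, was at 31.2, 28.6 and 25.1 CPM at 1.5 h and at 7.98, 7.38 and 8.37 CPM at 24 h. Its log2 fold change of -1.84 ± 0.22 (adjusted p = 1.4e-08) was reached late, with -1.19 between 12 and 24 h (adjusted p = 0.0015). HAS2, a hyaluronan synthase, showed the largest of the 11 falls, from 27.7, 37.0 and 27.1 CPM to 5.67, 9.22 and 10.7 CPM, a log2 fold change of -1.85 ± 0.29 (adjusted p = 1.5e-05). Of this, -1.27 lay between 12 and 24 h (adjusted p = 0.013). STEAP1, a protein of the plasma membrane, fell by 1.12 on the log2 scale (adjusted p = 0.0012), of which 0.88 fell between 12 and 24 h (adjusted p = 0.026). PLAUR, the receptor of urokinase, took an intermediate course. It was at 256, 280 and 251 CPM at 1.5 h and 138, 107 and 110 CPM at 24 h, with log2 fold changes of -0.02 at 3 h, -0.69 at 6 h (adjusted p = 5.1e-05) and -1.15 at 24 h (adjusted p = 1.1e-12). STC1, a secreted glycoprotein, followed it at 0.06, -0.56 and -1.18. All contrasts against 1.5 h share the same 3 libraries, so the time points are not independent of each other.

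**Figure D2:**
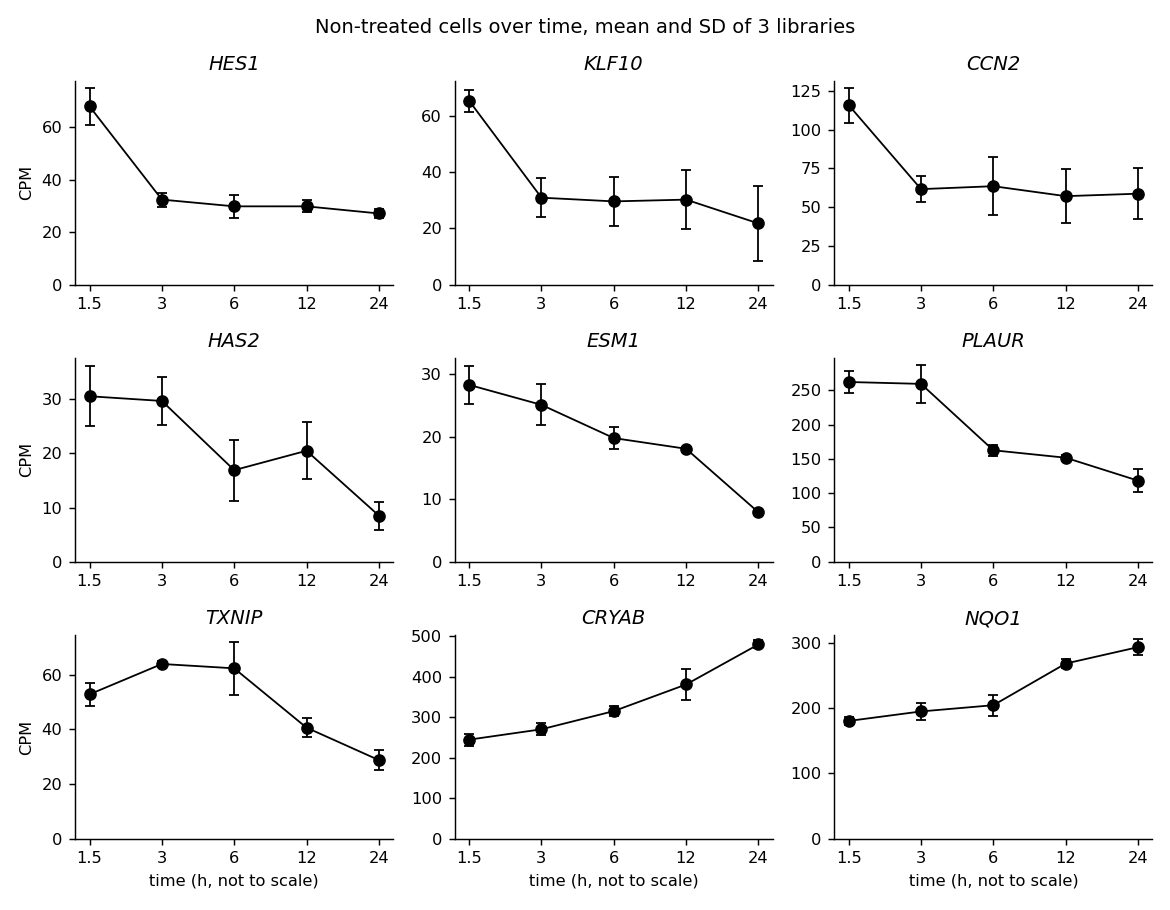
Level in CPM (vertical axis, from 0) of 9 genes in non-treated cells at 5 times from 1.5 to 24 h (horizontal axis, equally spaced); points are means and bars SDs of 3 libraries. HES1, KLF10 and CCN2 drop between 1.5 and 3 h, HAS2 and ESM1 have log2 fold changes of -1.27 and -1.19 between 12 and 24 h, and CRYAB climbs from 245 to 480 CPM.

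Several of these genes belong to the plasminogen and coagulation system. A list of 13 genes, 11 of them tested, was drawn up for it after the values had been seen. Among its members PLAUR, F3, TFPI2 and SERPINE2 fell and none rose. Because the list was drawn up with these falls known, its share of falls cannot be set against that of all tested genes. F3, tissue factor and the starter of coagulation, went from 50.3, 46.0 and 41.8 CPM to 16.2, 14.1 and 26.5 CPM, a log2 fold change of -1.28 ± 0.23 (adjusted p = 0.0002). TFPI2, a protease inhibitor, went from 41.1, 45.7 and 55.3 CPM to 14.9, 24.9 and 23.4 CPM, a log2 fold change of -1.17 ± 0.21 (adjusted p = 0.00021). SERPINE2, which inhibits thrombin and urokinase, was at 427, 422 and 408 CPM and then at 257, 230 and 286 CPM (log2 fold change -0.70 ± 0.09, adjusted p = 4.8e-08). In none of the 3 genes did the groups overlap. The urokinase gene PLAU at -0.62 (adjusted p = 0.43) and the tissue activator PLAT at 0.95 (adjusted p = 0.11) did not pass.

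The gene lists from here on were chosen with earlier results of these data known. Their shares beside those of all tested genes are descriptions and not tests of a list. In the list of YAP and SRF targets, 7 of 36 tested genes fell, namely F3, CCN2, NT5E, DLC1, GADD45A, FHL2 and AMOTL2 (19.4%, against 1.45% of all tested genes). A single member rose (2.78%, against 1.84%), the receptor tyrosine kinase AXL at 0.31 (adjusted p = 0.024). FHL2, AMOTL2 and AXL lie outside the naming rule and are named after their values were seen. The median log2 fold change of the list was -0.12, and 25 of 36 members had a negative value. NT5E, the ectonucleotidase CD73, fell by 0.65 on the log2 scale (adjusted p = 0.0013), and DLC1, a GTPase-activating protein, fell by 0.59 (adjusted p = 0.00033). CCN1, the relative of CCN2, was at -0.12 (adjusted p = 0.74). With the GC correction 8 members fell and none rose, in a fit where 1.31% of all tested genes fell and 1.05% rose. Without the third 24 h library 8 fell, in a fit where 336 genes fell in all, against 179 with every library.

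Among 19 tested TGF-beta and BMP targets, 5 fell, including SKIL, SMURF2, PMEPA1 and ID1, and none rose (ID1 is named after its value was seen). SKIL, a repressor of SMAD activity induced by the pathway itself, went from 59.9, 57.9 and 68.4 CPM to 33.0, 34.4 and 39.8 CPM, a log2 fold change of -0.79 ± 0.14 (adjusted p = 9.7e-05). SMURF2, a ubiquitin ligase of the same feedback, fell by 0.64 (adjusted p = 0.0024). PMEPA1 fell by 0.40 (adjusted p = 0.029). The list's median was -0.07, with values from -2.26 to 0.48, and 26.3% of it fell against 1.45% of all tested genes. PMEPA1 lost its call without any 1 of the 6 libraries (adjusted p up to 0.12), and over those fits 3 or 4 members of the list fell.

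Extracellular matrix and integrin genes gave 3 falls (5.45%, against 1.45% of all tested genes) and no rise among 55 tested, with a median of -0.13. COL6A3, a chain of collagen VI, was at 653, 687 and 675 CPM at 1.5 h and 446, 362 and 425 CPM at 24 h (log2 fold change -0.71 ± 0.09, adjusted p = 1.0e-07). FN1, fibronectin, went from 250, 294 and 266 CPM to 177, 129 and 194 CPM (-0.69 ± 0.13, adjusted p = 0.00049). LOX, which cross-links collagen, went from 338, 351 and 298 CPM to 171, 165 and 229 CPM (-0.81 ± 0.12, adjusted p = 7.6e-06). In all 3 the groups were separate. COL1A1, another abundant collagen, was at -0.07 (adjusted p = 0.78), so the fall did not extend to each collagen measured. With the GC correction 4 members fell and 1 rose, in a fit where 1.31% of all tested genes fell and 1.05% rose.

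HSPA5 and HSP90B1, chaperones of the endoplasmic reticulum, fell. In the list for the unfolded protein response, 4 of 24 tested genes fell (16.7%, against 1.45% of all genes) and none rose, the median was -0.28, and 19 of 24 had a negative value. HSPA5, the chaperone BiP, was at 1226, 1239 and 1347 CPM and then at 962, 1038 and 937 CPM (log2 fold change -0.38 ± 0.08, adjusted p = 0.00092). HSP90B1, its partner GRP94, was at 1035, 981 and 915 CPM and then at 651, 618 and 757 CPM (-0.53 ± 0.09, adjusted p = 7.0e-05). MANF, a secreted factor induced with them, fell by 0.33 (adjusted p = 0.013), and CREB3L2, a membrane-bound transcription factor, fell by 0.45 (adjusted p = 0.031), the latter without a call after GC correction (adjusted p = 0.11). Without the first 1.5 h library neither passed (adjusted p = 0.095 for MANF and 0.11 for CREB3L2). HSPA5 had reached -0.37 by 6 h (adjusted p = 0.0056).

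Smaller groups fell in part. Of 32 listed p53 targets and cell cycle brakes, GADD45B, PMAIP1, GADD45A and AEN fell (12.5%, against 1.45% of all tested genes) and none rose. SFN, a p53-regulated gene that the list does not hold, rose by 1.44 (adjusted p = 0.00057). CDKN1A was at -0.31 (adjusted p = 0.33). GADD45A had overlapping groups, no call after GC correction (adjusted p = 0.058) and none without the first 24 h library (adjusted p = 0.27), and AEN lost its call without the third 1.5 h library (adjusted p = 0.077). Of 41 ribosome biogenesis genes, BYSL, NOP14, TSR1 and DDX21 fell, 9.76% against 1.45% of all tested genes (DDX21 is named after its value was seen). NHP2 rose by 0.34 (adjusted p = 0.037), 2.44% of the list against 1.84%, without a call after GC correction (adjusted p = 0.34). NOP14, TSR1 and NHP2 each lost their call without the second 1.5 h library (adjusted p = 0.11, 0.072 and 0.099). BYSL, needed for the small ribosomal subunit, was at 54.1, 60.7 and 55.3 CPM and then at 40.2, 37.8 and 37.5 CPM, a log2 fold change of -0.56 ± 0.13 (adjusted p = 0.0067, and 0.051 without the second 1.5 h library). TXNIP, a glucose-induced inhibitor of glucose uptake, fell from 57.7, 50.6 and 50.1 CPM to 28.6, 32.6 and 25.1 CPM (-0.88 ± 0.16, adjusted p = 0.00029), after 3 and 6 h values of 0.27 and 0.24 that did not pass. BIRC3, an inhibitor of apoptosis and NF-kB target, fell by 0.79 (adjusted p = 0.00052) and NFKBIA by 0.32 (adjusted p = 0.040, 0.086 with the GC correction and 0.18 without the second 1.5 h library), whereas TNFAIP2 of the same list rose by 0.73 (adjusted p = 0.001). NFKBIA was lower at 3 h, at -0.92 (adjusted p = 8.9e-10), and then rose by 0.47 between 12 and 24 h (adjusted p = 0.0039).

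Of the largest rises by the naming rule, 11 are described here, and 4 of them passed in all 15 alternatives. CRYAB, a small heat-shock protein known in astrocytes, lies at chr11:111908564-111923722 (GRCh38) and had the lowest adjusted p among the rises named here. It was at 232, 261 and 241 CPM at 1.5 h and at 486, 485 and 469 CPM at 24 h, a log2 fold change of 0.97 ± 0.08 (adjusted p = 6.6e-14) that built up through 0.14, 0.37 and 0.64 at 3, 6 and 12 h. The only other heat-shock gene of 24 tested that rose was HSPB1, at 0.36 (adjusted p = 0.020), which had no call after GC correction (adjusted p = 0.46) or without the second 1.5 h library (adjusted p = 0.12). The 2 rises made up 8.33% of the list, against 1.84% of all tested genes. HSPA1A was at 0.17 (adjusted p = 0.85). SFN, the p53-regulated protein 14-3-3 sigma, went from 7.96, 10.1 and 6.77 CPM to 24.7, 16.6 and 26.5 CPM (1.44 ± 0.28, adjusted p = 0.00057). SLC22A23, an orphan organic ion transporter, went from 9.56, 8.37 and 7.96 CPM to 20.1, 21.2 and 26.0 CPM (1.37 ± 0.20, adjusted p = 2.7e-06), and KRT80, an epithelial keratin, went from 16.6, 15.7 and 13.1 CPM to 28.9, 31.4 and 32.9 CPM (1.03 ± 0.22, adjusted p = 0.0022). In each of these 4 genes the lowest 24 h library was above the highest 1.5 h library, and each passed in all 15 alternatives.

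The other 7 of these 11 rises depended on the setting. NDUFB7, a subunit of respiratory complex I with 63.5% GC, rose by 1.07 (adjusted p = 0.0017) from 50.6, 46.4 and 23.5 CPM to 89.6, 109 and 56.8 CPM. It reached an adjusted p of 0.054 without the third 1.5 h library. SGTA, a cochaperone with 67% GC, rose by 0.98 (adjusted p = 0.0095), but the third 24 h library, at 41.8 CPM, lay inside the 1.5 h range, and it did not pass with the GC correction (adjusted p = 0.056) or, in the uncorrected fit, without the second 24 h library (adjusted p = 0.15). LONP1, the mitochondrial protease, rose by 0.98 (adjusted p = 0.0089) and reached 0.088 without the second 24 h library. ZNF444, a zinc finger factor, rose by 0.96 (adjusted p = 0.015) and did not pass after GC correction (adjusted p = 0.083) or without the second 24 h library (adjusted p = 0.13). MDFIC2, MSRB2 and WFDC21P rose by 1.06, 0.91 and 0.90, and each missed the threshold in at least 3 of 15 alternatives. Without the second 1.5 h library MSRB2 and WFDC21P reached an adjusted p of 0.22 and 0.057, and without the first MDFIC2 reached 0.14.

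**Figure D3:**
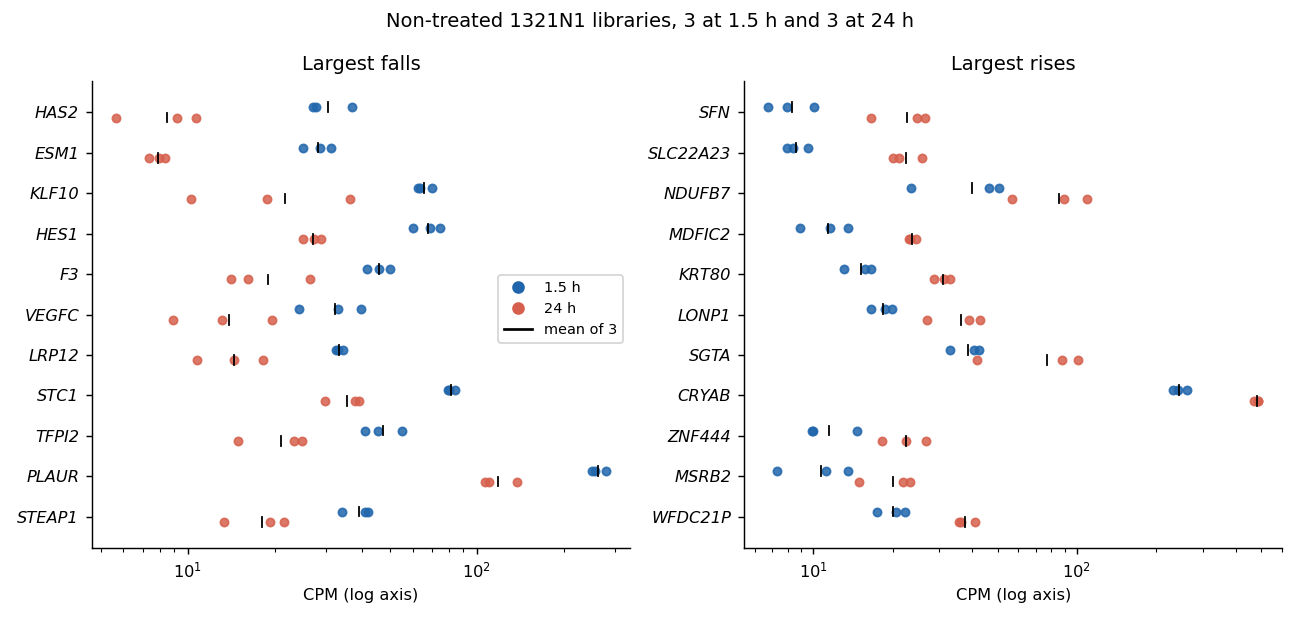
CPM (log axis) of 11 of the largest falls (left) and 11 of the largest rises (right) by the naming rule; each point is 1 of 3 libraries at 1.5 h (blue) or 24 h (red), and the black line is their mean. The groups are separate in all 11 falls and in 10 of the 11 rises, the exception being SGTA. They are also separate in 389 of all 406 called genes and in 20.6% of all tested genes.

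Several genes of redox supply and iron storage rose. In the list of NRF2 and redox genes, 5 of 28 tested rose (17.9%, against 1.84% of all tested genes) and none fell, the median was 0.24, and 21 of 28 had a positive value. NQO1, a quinone reductase, was at 185, 182 and 174 CPM and then at 306, 291 and 283 CPM (log2 fold change 0.70 ± 0.08, adjusted p = 1.4e-08). FTL, the ferritin light chain, was at 531, 536 and 553 CPM and then at 806, 823 and 746 CPM (0.55 ± 0.08, adjusted p = 5.9e-06). SLC7A11, the cystine importer, was at 90.5, 108 and 103 CPM and then at 161, 141 and 138 CPM (0.55 ± 0.12, adjusted p = 0.0018). In all 3 genes the groups were separate, and each had a similar value at 12 h (0.57, 0.54 and 0.51). PGD, an NADPH-producing enzyme, rose by 0.44 (adjusted p = 0.0075, and 0.063 without the second 1.5 h library), and TKT of the pentose phosphate pathway by 0.39 (adjusted p = 0.023), the latter named after its value was seen. HMOX1, heme oxygenase, went the other way at -0.70 without passing (adjusted p = 0.075), and it passed with the GC correction (adjusted p = 0.040). Without the third 24 h library 7 members rose, in a fit where 291 genes rose in all, against 227 with every library. Over all fits without 1 library the list's count ran from 3 to 7.

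The amino acid response list gave 5 rises (10.6%, against 1.84% of all tested genes) and no fall among 47 tested. DDIT4, an inhibitor of mTORC1 induced by several stresses, was at 5.73, 6.28 and 4.78 CPM and then at 23.9, 14.8 and 14.1 CPM, a log2 fold change of 1.65 ± 0.28 (adjusted p = 5.6e-05). It had already reached 1.48 at 6 h (adjusted p = 0.0044) and 1.93 at 12 h (adjusted p = 1.5e-06). SLC7A11 is a member too, and PYCR1 at 0.43 (adjusted p = 0.027) and CARS1 at 0.42 (adjusted p = 0.016) did not pass after GC correction (adjusted p = 0.21 and 0.062) or without the second 24 h library (adjusted p = 0.15 and 0.26). PHGDH, named after its value was seen, rose by 0.35 (adjusted p = 0.017) and had no call after GC correction. With the correction 2 members of the list rose, DDIT4 and SLC7A11, where 1.05% of all tested genes did.

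A few lipid genes rose. SCD, the stearoyl-CoA desaturase, was at 343, 330 and 332 CPM and then at 473, 385 and 502 CPM (log2 fold change 0.44 ± 0.08, adjusted p = 0.00025). It was the 1 of 18 fatty acid synthesis genes that rose (5.56%, against 1.84% of all tested genes). In the cholesterol list, HMGCS1 at 0.41 (adjusted p = 0.020), MVK at 0.69 (adjusted p = 0.012) and INSIG1 at 0.36 (adjusted p = 0.036) rose out of 23 tested, with none that fell, a median of 0.25 and 19 positive values. The count of rises went down to 1 (INSIG1) with the GC correction, where 1.05% of all tested genes rose. It went down to 0 without the second 24 h library, where the adjusted p by edgeR was 0.051 for INSIG1, 0.10 for HMGCS1 and 0.064 for MVK.

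**Figure D4:**
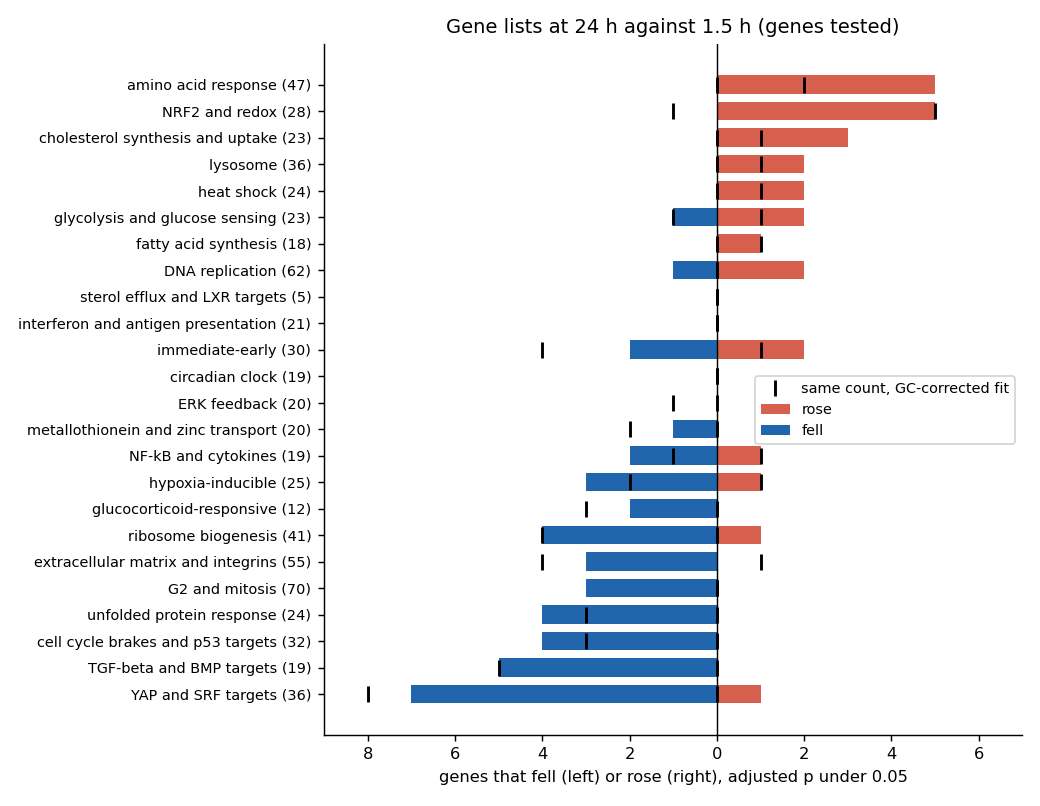
Number of genes that rose (right) or fell (left) at 24 h in each of 24 lists, with the number tested in brackets; black ticks give the same counts with the GC correction. YAP and SRF targets hold 7 falls and NRF2 and redox genes hold 5 rises.

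In several groups no gene or only a few genes were called. Over all tested genes 1.84% rose and 1.45% fell. In the interferon, circadian clock and LXR lists no gene of 21, 19 and 5 tested passed in either direction by edgeR or with the GC correction. ERK feedback genes gave 0 of 20, and 1 fall (HBEGF) with the correction, where 1.31% of all tested genes fell. Of 70 genes of G2 and mitosis, CENPE, KIF23 and BUB3 fell (4.29%), by 0.43, 0.40 and 0.29. Of 62 DNA replication genes RRM2 fell (1.61%) and POLD2 and E2F2 rose (3.23%). None of these 6 passed after GC correction. Without the third 24 h library 8 genes of G2 and mitosis fell, in a fit where 336 genes fell in all, against 179 with every library. CENPE, KIF23, BUB3, RRM2, POLD2 and E2F2 all lost their calls without the first 24 h library (adjusted p = 0.12, 0.12, 0.095, 0.0995, 0.13 and 0.18). MKI67 and CCNB1 were at -0.22 and -0.02 (adjusted p = 0.30 and 0.97). Among 30 tested immediate-early genes, KLF10 and CSRNP1 fell (6.67%) and KLF6 and NR4A1 rose (6.67%). Each share was above that of all tested genes. Of these genes all but KLF10 lost their calls without the first 24 h library (adjusted p = 0.18, 0.078 and 0.051). KLF6 did not pass after GC correction (adjusted p = 0.26). NR4A1 had only 10.7 counts on average and passed in 7 of 15 alternatives. EGR1 was at 29.0, 34.9 and 35.4 CPM at 1.5 h and 33.5, 31.7 and 38.1 CPM at 24 h, with no difference beyond the spread (0.06 ± 0.20, adjusted p = 0.92), yet it was lower at 3 h, by 1.43 on the log2 scale (adjusted p = 0.00021). FOS had 1.33 counts per library on average, too few to show a difference.

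In the hypoxia-inducible list 3 of 25 tested genes fell (12%, against 1.45% of all tested genes), including LOX and PDK1. DDIT4 rose (4%, against 1.84%), and VEGFA was at -0.40 (adjusted p = 0.53). The glycolysis list of 23 tested genes gave GAPDH at 0.39 (adjusted p = 0.040) and SLC16A3, a lactate exporter, at 0.61 (adjusted p = 0.0048) beside the fall of TXNIP. Thus 8.70% of the list rose and 4.35% fell, against 1.84% and 1.45% of all tested genes. GAPDH lost its call after GC correction (adjusted p = 0.18). PDK1 did not pass after GC correction either (adjusted p = 0.093). Without the first 24 h library GAPDH, SLC16A3 and PDK1 reached adjusted p-values of 0.17, 0.078 and 0.24. The lysosomal genes CTSD and GRN rose, by 0.61 (adjusted p = 0.00073) and 0.63 (adjusted p = 0.035), out of 36 tested (5.56%, against 1.84% of all tested genes). CTSD passed after GC correction and GRN did not (adjusted p = 0.15), nor did GRN pass without the first 24 h library (adjusted p = 0.19). Glucocorticoid-responsive genes gave 2 falls out of 12 (16.7%, against 1.45% of all tested genes). They included ERRFI1, which fell but lost its call without the second 24 h library (adjusted p = 0.21).

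Because the series is about metals, the metallothioneins of non-treated cells set its baseline. MT2A, an abundant metal-binding protein, was at 2591, 2614 and 2604 CPM at 1.5 h and 1852, 1759 and 1650 CPM at 24 h. The groups were separate, but the log2 fold change of -0.57 ± 0.19 did not pass (adjusted p = 0.076), whereas with the GC correction it did (adjusted p = 0.0084). At 12 h the gene averaged 3798 ± 1243 CPM (SD, n = 3), the widest spread of its 5 times. MT1E was at 252, 229 and 189 CPM and then at 158, 161 and 174 CPM, a log2 fold change of -0.45 ± 0.11 (adjusted p = 0.0092). It was the 1 of 20 metallothionein and zinc transport genes that fell (5%, against 1.45% of all tested genes). Without the first 1.5 h library it did not pass (adjusted p = 0.13).

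The same interval was also measured with metal, in libraries that share none with the non-treated comparison. Metal had been present for 1.5 h in the earlier metal libraries, so their change is not the metal's effect as such. Of the 227 genes that rose without metal, 47 (20.7%) also rose with cadmium, in which 2.24% of all tested genes rose, and these made up 17.0% of the cadmium list. Of the 179 that fell, 43 (24.0%) also fell with cadmium, in which 2.13% of all tested genes fell, and these made up 16.3% of the cadmium list. With arsenic, 46 (20.3%) also rose, against 6.78% of all tested genes, and 79 (44.1%) also fell, against 8.56%. They made up 5.50% and 7.47% of the arsenic lists, where 1.84% and 1.45% of all tested genes had risen or fallen without metal. With mercury, 58 (25.6%) also rose, against 10.6% of all tested genes, and 53 (29.6%) also fell, against 9.57%. They made up 4.44% and 4.49% of the mercury lists, against the same 1.84% and 1.45%. Some calls were opposite. Of the genes that rose without metal, 25 (11.0%) fell with arsenic, where 8.56% of all tested genes fell, 0 fell with cadmium by edgeR's adjusted p (2 at an unadjusted p under 0.05), where 2.13% fell, and 27 (11.9%) fell with mercury, where 9.57% fell. Of those that fell without metal, 11 (6.15%) rose with arsenic, 5 (2.79%) with cadmium and 21 (11.7%) with mercury, where 6.78%, 2.24% and 10.6% of all tested genes rose.

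CRYAB rose in all 3 metals, by 1.31 with arsenic, 1.54 with cadmium and 1.75 with mercury on the log2 scale. ESM1 fell by 2.63 with arsenic and by 0.89 with cadmium but rose by 0.76 with mercury. PLAUR likewise fell by 0.48 and 0.60 and rose by 0.57 with mercury. LRP12, a member of the lipoprotein receptor family that fell by 1.20 without metal (adjusted p = 0.00026), was at 0.15, 0.03 and 0.18 with arsenic, cadmium and mercury, none of which passed.

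**Figure D5:**
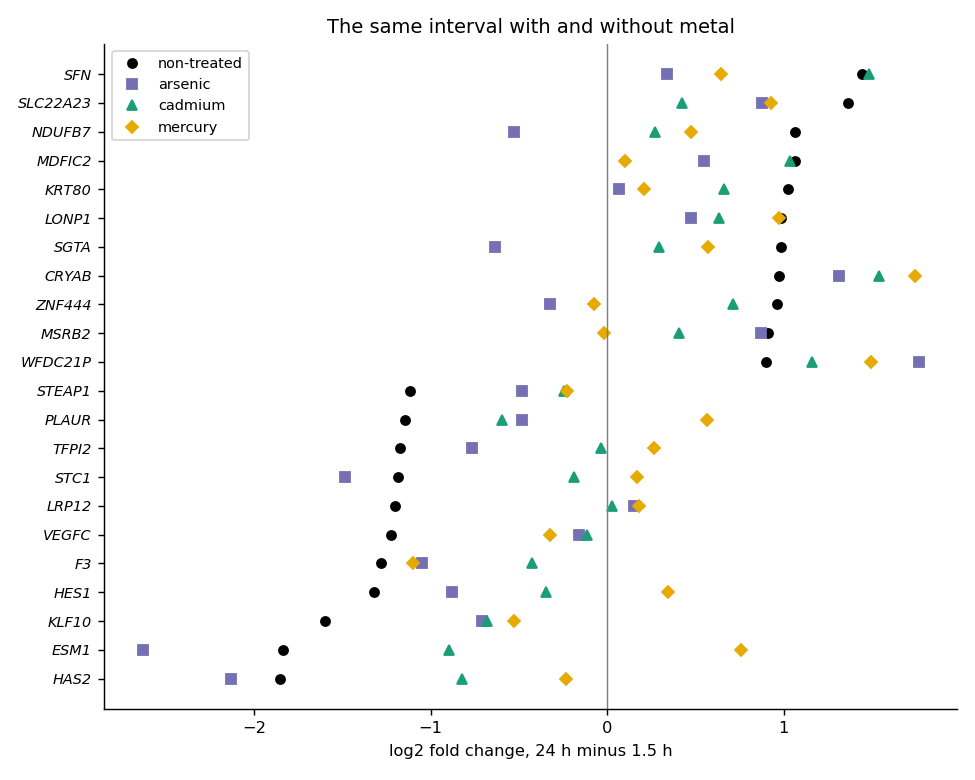
Log2 fold change from 1.5 to 24 h (horizontal axis) of 22 of the genes with the largest falls and rises in non-treated cells, without metal (black) and with arsenic, cadmium or mercury. CRYAB lies right of 0 under all 4 conditions, whereas ESM1 and PLAUR lie right of 0 with mercury only.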

How the data were processed

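RNA from 60 cultures of 1321N1 cells was sequenced by the QuantSeq 3′ mRNA protocol. Per the labels and the study's methods, the authors aligned reads to GRCh38 with STAR 2.7.9a and counted them strand-specifically over exons of the GENCODE annotation, and the deposited values are raw counts per gene. ERCC control rows, all at 0, were left out. Groups and replicate numbers came from sample titles. Counts of all 60 libraries were fitted in edgeR 4.0.16 (R 4.3.3) with TMM scaling, filterByExpr (minimum count 10) and glmQLFTest, with a coefficient for each group. A standard error is the log2 fold change divided by the square root of F. CPM are from edgeR's cpm function, per effective library size (counts in tested genes times the TMM factor), or per raw total for marker sums. The GC correction used a loess of each library's deviation against GC of the last 400 transcript bases (GENCODE release of the reference at hand) as an offset.

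Named genes were the 12 largest rises and the 12 largest falls with an adjusted p under 0.05 and at least 50 counts on average, up to 4 called members of each list by size of change (or its most abundant member), and 25 anchor genes, of which 24 were tested and 4 passed. A few genes that the rule names are not reported here. Members and lists were chosen with earlier results of these data known. The 15 alternatives included DESeq2 1.42.0, RLE factors, other filters, fewer libraries, a replicate block and leaving out each library. They also held the GC-corrected fit, with every library and without the third 24 h library. glmTreat was run only for the count of genes past the fold threshold and is not among them. Same-numbered replicates did not deviate together (r from -0.20 to -0.07 over 7162 genes) and were not treated as paired. In simulated data on 11668 genes, the fit called 81 of 97 genes changed by 1 on the log2 scale and 94 of 97 changed by 2, with 7 unchanged genes called. The 3-count level covers counting error only. No batch is given in the labels.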

Additional observations from a re-analysis of the deposited data

Results flagged for a closer look

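The change from 1.5 to 24 h differed between metal-treated and non-treated cells, by an interaction contrast in the edgeR fit with Benjamini-Hochberg adjustment over all genes, in 7 of 22 of the largest rises and falls for arsenic, 6 for cadmium and 10 for mercury. The values are the metal's log2 fold change minus that of non-treated cells. With arsenic they were 1.36 for LRP12 (adjusted p = 0.0015), 0.66 for PLAUR, -1.28 for ZNF444, 0.34 for CRYAB, -1.62 for SGTA, -0.96 for KRT80 and -1.59 for NDUFB7. With cadmium the differences were 0.97 for HES1, 1.23 for LRP12, 0.997 for STC1 (adjusted p = 1.2e-05), 1.13 for TFPI2, 0.55 for PLAUR and 0.57 for CRYAB. With mercury they were 1.62 for HAS2, 2.60 for ESM1 (adjusted p = 6.5e-11), 1.66 for HES1 (adjusted p = 6.6e-08), 1.39 for LRP12, 1.36 for STC1 (adjusted p = 3.2e-10), 1.44 for TFPI2, 1.71 for PLAUR (adjusted p = 7.8e-15), 0.89 for STEAP1, -1.04 for ZNF444 and 0.77 for CRYAB (adjusted p = 6.4e-07). The 22 genes were chosen for a large change in the non-treated libraries, which enter each of these differences, so values opposite to that change are in part set by the choice. The share of all tested genes that differed by this contrast is not given here. The counts therefore do not set the 22 genes apart. The differences come from the fit without GC correction only. SGTA, NDUFB7 and ZNF444 have 67, 63.5 and 61.75% GC, and the part of the GC trend in their differences was not tested.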

How the results depend on the processing

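Of the 227 rises, 179 falls and 61 genes past a log2 fold change of 1, the rises numbered 136 with only the 6 libraries compared and 129 with the GC correction, and the falls 286 with DESeq2. Genes past the fold threshold numbered 0 by edgeR's glmTreat against that threshold (91 at an unadjusted p under 0.05, against 67 genes by DESeq2 with the cut on fold change) and 96 with the GC correction without the third 24 h library. Leaving out 1 library gave 77 to 291 rises, 98 to 336 falls and 34 to 138 genes past the fold threshold. With the replicate block the counts were 220, 177 and 61, and 387 of the 406 calls were shared, although the numbers share only a name. Genes of a few counts, such as FOS, could not show a difference at this depth. Over the named genes and alternatives, 1341 values kept side and direction, 223 lost the call, 23 gained it and 25 changed sign. No value that changed sign had been called. In the GC-corrected fit these were CCN1 at 0.00028, CCNB1 at 0.076, CSNK1D at -0.11, DBP at -0.15 and NR1H2 at -0.029. In that fit without the third 24 h library they were VEGFA at 0.021, CCNB1 at 0.011, CSNK1D at -0.15, DBP at -0.57 and NR1H2 at -0.012. Over the fits without 1 library, ranges that spanned 0 were -0.14 to 0.038 for CCNB1, -0.20 to 0.015 for COL1A1, -0.086 to 0.093 for CSNK1D, -0.33 to 0.45 for DBP, -0.28 to 0.12 for DUSP6, -0.036 to 0.11 for EGR1, -0.14 to 0.40 for HSPA1A and -0.048 to 0.34 for NR1H2. The causes were not tested.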

Other observations

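Genes outside the naming rule and lists that passed in all 15 alternatives, named after their values were seen, included further rises and falls. SAMD11 rose from 4.14, 5.58 and 5.57 CPM to 27.3, 24.9 and 18.5 CPM (log2 fold change 2.21, edgeR adjusted p = 4.2e-06), and PDGFRB, a growth factor receptor, from 4.46, 8.37 and 8.36 CPM to 22.4, 13.8 and 19.3 CPM (1.41, adjusted p = 0.0012). Both had fewer than 50 counts on average. CKB, the brain creatine kinase, rose by 0.75 (adjusted p = 6.1e-06) and LMNA, which encodes lamins A and C, by 0.48 (adjusted p = 0.00022).

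HMGA2, a chromatin protein of proliferating cells, was at 336, 334 and 321 CPM at 1.5 h and at 229, 223 and 221 CPM at 24 h (log2 fold change -0.56, adjusted p = 1.4e-06). RGMB, a BMP co-receptor, fell by 0.95 (adjusted p = 3.9e-07), the transcription factor FOXD1 by 0.99 (adjusted p = 0.00057) and the transferrin receptor TFRC by 0.39 (adjusted p = 0.0016). UAP1 and GNPNAT1, both enzymes that make UDP-N-acetylglucosamine, a precursor of hyaluronan, fell by 0.62 (adjusted p = 0.0027) and 0.52 (adjusted p = 0.00072).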
